A study of Homo sapiens with 12 samples.

Results

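The regions described here are 1941 accessibility summits that lay within 1000 bp of an end of a pseudogene and more than 1000 bp from an end of every gene of another kind, on chromosomes 1 to 22, in peak intervals of at most 10 kb. They were 1.84% of the 105599 summits within the same limits on chromosome and length (exact binomial 95% interval 1.76 to 1.92%) and 1.03% of the 188019 summits in the whole list. The 1941 summits lay in 1597 intervals, of which 1344 held a single member summit. Their nearest pseudogenes numbered 1511, and 112 summits were within reach of more than 1 pseudogene. Gene ends were those of the RefSeq annotation of GRCh38.p14, and every RefSeq gene type with pseudogene in its name was counted as a pseudogene. The choice used positions only, not the strength of the signal.

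Chromatin accessibility was measured by ATAC-seq: a transposase cuts open DNA and adds sequencing adapters to it, so that open sites collect overlapping fragments. The cells were HT1080, an established human fibrosarcoma line of mesenchymal character. They were cultured in type I collagen gels of 0.3, 1 or 1.7 mg/mL, each with 4 libraries, at 100000 cells/mL for 48 h. All 3 groups also received 20 µM GM6001, an inhibitor of matrix metalloproteinases, so that no group without the inhibitor was among them. The list analysed here was a single peak list for all 12 libraries, with no value for a library or a gel concentration. Accordingly, no comparison between gel concentrations and no spread between libraries is given, and the depth of each library is unknown. Every interval below covers counting error only, and near-identical copies of a sequence are not independent of each other.

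A pseudogene is a copy of a gene that no longer encodes the functional product. Processed copies arise when an mRNA is reverse transcribed and inserted elsewhere in the genome, so they usually lack introns and the promoter of the parent gene. Duplicated copies arise when a stretch of genomic DNA is copied, and they can carry the parent's promoter, exons and introns along. Other pseudogenes are fragments of mitochondrial DNA inserted into the nuclear genome, or copies of small noncoding RNA genes. Reads from near-identical copies are hard to place, and the handling of reads that matched several places is not given in the sources used here.

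The sequences of the member regions were not used here, but the upstream sequences of parent genes were. The 4 shown are those of parents with at least 3 copies whose best member summit had an enrichment of 10 or more (described further below) and whose own summit fell in the stretch. Each is the 250 bases before the annotated start of the parent, 5′ to 3′ on the gene's strand, from the RefSeq promoter table of GRCh38.p14, with every CpG dinucleotide in capitals. HERC2 encodes a large ubiquitin ligase (chr15:28322180-28322429, minus strand), PMS2 a DNA mismatch repair protein (chr7:6009107-6009356, minus strand), SEPTIN7 a cytoskeletal GTPase (chr7:35800807-35801056, plus strand) and GUSB the lysosomal enzyme beta-glucuronidase (chr7:65982214-65982463, minus strand).
HERC2: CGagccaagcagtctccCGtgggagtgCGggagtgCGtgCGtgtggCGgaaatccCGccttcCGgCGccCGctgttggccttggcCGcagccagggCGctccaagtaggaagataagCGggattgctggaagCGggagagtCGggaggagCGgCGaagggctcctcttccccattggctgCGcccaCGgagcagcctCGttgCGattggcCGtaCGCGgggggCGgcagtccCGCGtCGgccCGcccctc
PMS2: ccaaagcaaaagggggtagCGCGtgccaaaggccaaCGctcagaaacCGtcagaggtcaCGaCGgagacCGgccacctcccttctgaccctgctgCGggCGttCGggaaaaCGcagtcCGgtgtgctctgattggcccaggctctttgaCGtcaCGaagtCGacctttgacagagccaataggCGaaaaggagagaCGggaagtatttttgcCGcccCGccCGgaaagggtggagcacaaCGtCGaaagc
SEPTIN7: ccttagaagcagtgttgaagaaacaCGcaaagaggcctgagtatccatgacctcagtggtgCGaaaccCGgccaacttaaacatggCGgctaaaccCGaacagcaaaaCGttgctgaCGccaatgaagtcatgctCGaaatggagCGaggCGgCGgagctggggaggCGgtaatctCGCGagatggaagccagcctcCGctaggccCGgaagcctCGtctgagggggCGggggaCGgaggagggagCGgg
GUSB: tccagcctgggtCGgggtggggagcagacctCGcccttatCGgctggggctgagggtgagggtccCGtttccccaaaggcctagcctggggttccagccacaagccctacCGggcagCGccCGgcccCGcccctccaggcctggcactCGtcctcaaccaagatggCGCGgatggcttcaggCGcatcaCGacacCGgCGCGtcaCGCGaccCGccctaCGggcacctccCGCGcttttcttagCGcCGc
The stretches held 29, 22, 20 and 24 CpG dinucleotides, in that order. The parents' own strongest summits fell at base 180 of the HERC2 stretch, base 168 of the PMS2 stretch, base 247 of the SEPTIN7 stretch and base 212 of the GUSB stretch, counted from the first base printed.

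Most member summits were weak. The enrichment used here is the authors' value at the summit, a fold over the local background that the peak caller used, and the pileup is a count of fragments that overlap the summit, recovered from the deposited values. The median enrichment of the 1941 summits was 2.93 (order-statistic 95% interval 2.77 to 3.17), with quartiles of 1.94 and 6.18 and a range of 1.10 to 32.1. The median pileup was 86 fragments (81 to 92), with quartiles of 48 and 200 and a range of 35 to 22734. An enrichment under 3 was found at 980 summits (50.5%) and one of at least 10 at 242 (12.5%). The background was at the genome-wide level of 20.3 fragments for 36.1% of members, close to the 34.4% of all summits within the same limits.

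Summits at the ends of coding genes only, chosen with the same limits, were stronger, at a median of 8.49 (8.26 to 8.67, 11400 summits), and their median pileup was 456. Those at the ends of long noncoding RNA genes only had 4.63 and 145 (4056 summits). Summits with no gene end within 1000 bp had 3.55 (3.52 to 3.56, 84359 summits) and a median pileup of 92. The interval around the pseudogene members' median thus lay below each of the other 3 intervals. With a window of 500 bp the members' interval was 3.05 to 3.76, and with the strongest summit of each peak interval it was 3.43 to 3.90. The other classes were not recomputed under these settings, so their order there is not known. Enrichments of at least 10 made up 43.5% of the coding class, 18.8% of the long noncoding class and 11.0% of the class away from gene ends, against 12.5% (11.0 to 14.02%) of the pseudogene class. These are differences within 1 pooled list and were not tested.

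Of the 15727 pseudogenes annotated on chromosomes 1 to 22, 1585 had a member summit at most 1000 bp from an end, which is 10.1% (9.61 to 10.6%). This share is the background against which the families are read. Without the condition on other genes, 1881 pseudogenes (11.96%) had a summit. Counted by nearest pseudogene, 1204 had a single member summit and 307 had more, with 7 as the highest number. Pseudogenes of chromosome 22 had a member in 16.4% of cases, those of chromosome 7 in 15.0% and those of chromosome 15 in 14.8%. Chromosome 13 had the lowest share, 5.74%.

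The members nearest to the limits were as follows. Just inside the limit for pseudogene ends were a summit 996 bp from RBBP4P1 with an enrichment of 3.99 and one 995 bp from LOC100422491 with 1.74. Just outside it were summits 1001 bp from FAM90A6P, with 1.88, and from RPL23AP45, with 2.63. For the distance from other genes, ISCA2P1 stayed in at 1010 bp with an enrichment of 10.7 and LSP1P3 at 1026 bp with 2.49, whereas WASH8P at 1000 bp (11.8) and AHSA2P at 999 bp (14.8) were left out. The longest member interval, at CDC27P10, measured 9306 bp, and an interval of 12801 bp at DNM1P47 was left out.

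Annotated transcription went with more frequent and stronger summits. RefSeq marks some pseudogenes as transcribed. Of 1197 transcribed pseudogenes 346 had a member summit (28.9%, 26.4 to 31.6%), against 1216 of 14324 with the plain label (8.49%, 8.04 to 8.96%). The 442 summits nearest to transcribed pseudogenes had medians of 4.16 in enrichment and 156.5 in pileup, and 25.1% reached an enrichment of 10. For the 1472 summits nearest to plain pseudogenes the values were 2.77, 77 and 8.76%.

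The length of the pseudogene went with the same measures. A member summit was found at 5.94% of the 5993 pseudogenes of up to 500 bp and at 31.2% (27.4 to 35.3%) of the 557 longer than 20000 bp, and the share was higher in each longer class. The windows of 1000 bp around both ends overlap in pseudogenes shorter than 2000 bp, so less sequence was searched at these. The part of this in the shares was not tested. The transcribed label was carried by 0.184% of the shortest class and by 69.3% of the longest. Among plain pseudogenes alone the share was 5.76% (335 of 5813) up to 500 bp, 11.7% from 1000 to 2000 bp and 15.4% (26 of 169, 10.3 to 21.7%) over 20000 bp. Among transcribed pseudogenes it was 18.1% from 1000 to 2000 bp and 38.1% (147 of 386, 33.2 to 43.1%) over 20000 bp. Under either label the share was larger over 20000 bp than from 1000 to 2000 bp, though the intervals overlapped for plain pseudogenes (10.5 to 12.9% at the shorter length). Median enrichment was 3.73 at the shortest pseudogenes, 2.22 at those of 1000 to 2000 bp, 2.25 at those of 2000 to 5000 bp and 6.33 (5.39 to 7.77) at those over 20000 bp. In the longest class 35.4% of the summits had an enrichment of at least 10 and 40.2% lay within 100 bp of an end. In the class of 2000 to 5000 bp these shares were 6.47% and 8.99%. The order of the 2 labels in median enrichment changed with length. From 1000 to 2000 bp it was 1.93 (1.81 to 2.13) at transcribed and 2.31 (2.16 to 2.53) at plain pseudogenes. In the same order it was 2.49 (5 summits) and 3.75 up to 500 bp, and 2.77 and 3.33 from 500 to 1000 bp. From 2000 to 5000 bp it was 2.53 (2.16 to 5.52) and 2.16 (2.06 to 2.35), with overlapping intervals. From 5000 to 20000 bp it was 3.82 (2.93 to 4.74) and 2.25 (1.99 to 2.61), without overlap. Over 20000 bp it was 6.74 (5.88 to 9.43) and 3.26 (2.09 to 6.73), with overlapping intervals.

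Summits next to an end were the strongest. The median distance from the nearest end was 408 bp, and 320 members (16.5%) lay within 100 bp, against 41.0% of the summits at coding gene ends. Within 100 bp and outside the pseudogene, 172 summits had a median enrichment of 7.74 (5.96 to 9.71), and 41.9% of them reached 10. Within 100 bp and inside, 148 summits had a median of 4.01 (3.14 to 5.16). From 101 bp onwards the medians were 3.38 to 3.98 outside and 2.02 to 2.29 inside, with no further order beyond their intervals. In all, 864 members (44.5%) lay inside their pseudogene, with a median enrichment of 2.25 and a pileup of 62, and 1077 lay outside, with 3.94 and 106.

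**Figure D1:**
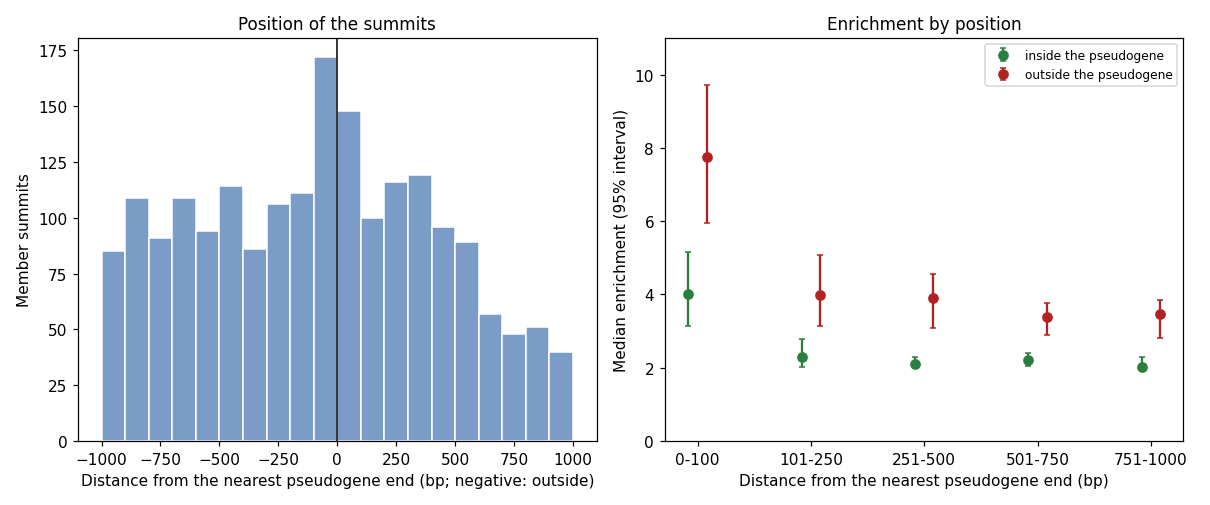
Left, number of member summits by distance from the nearest pseudogene end in bins of 100 bp, with negative distances outside the pseudogene. Right, median enrichment (authors' fold, with order-statistic 95% intervals) by distance, inside (green) and outside (red) the pseudogene; the outside bin of 0 to 100 bp stands highest, at 7.74.

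A coding gene's body contained 452 of the members (23.3%), at a median enrichment of 3.42, and a long noncoding RNA gene but no coding gene contained 149. Of all 15727 pseudogenes, 5131 (32.6%) had their centre in a coding gene. That share counts pseudogene centres rather than summits and has no condition on other gene ends. The remaining 1340 members lay in neither kind of gene, at a median of 2.81.

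Parent families differed in how many of their copies had a summit. Families were assigned from gene symbols. The share was 24.2% (105 of 433, 20.3 to 28.6%) among families that lie in recent segmental duplications, 20.99% (17 of 81) among copies of tubulins and actins, the building blocks of microtubules and microfilaments, and 19.9% (28 of 141) among copies of keratins, the intermediate filament proteins of epithelia. Pseudogenes in no fixed family and without a named parent had 24.3% (201 of 828). Nuclear copies of mitochondrial genes had 15.1% (66 of 438, 11.8 to 18.8%). All 5 of these intervals lay above the background of 10.1%. For the mitochondrial copies this rested on neighbouring fragments that shared a summit: counted by nearest pseudogene, 37 of 438 had a member (8.45%, 6.02 to 11.5%), against 9.61% (1511 of 15727) over all pseudogenes counted in that way. The segmental duplication families (22.6%), tubulins and actins and keratins (19.9%) stayed above that value. Uncharacterised loci (283 of 2308, 12.3%) and copies of other named parents (430 of 3848, 11.2%) were also above the background, by a small margin. Over all pseudogenes the share was 12.03% from 1000 to 2000 bp, 21.9% from 5000 to 20000 bp and 31.2% over 20000 bp. Median copy length was 1729 bp for KRT8, 1760 bp for ACTB, 18071 bp for HERC2 and 20241 bp for GUSB. The keratin (13.6 to 27.4%) and tubulin and actin (12.7 to 31.5%) intervals lay above 12.03%. The segmental duplication interval spanned 21.9% and ended below 31.2%. The part of length in these shares was not tested.

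Several large families were on the other side of the background. Copies of cytosolic ribosomal protein mRNAs had a member at 96 of 1919 (5.00%, 4.07 to 6.07%) and copies of small noncoding RNAs at 190 of 3314 (5.73%, 4.97 to 6.58%). Over all pseudogenes of up to 500 bp the share was 5.94% (5.36 to 6.57%), which lies within both of these intervals. From 500 to 1000 bp it was 7.68% (6.88 to 8.53%), above both. Median copy length was 480 bp for RPS20 and 550 bp for RPL21, but 927.5 bp for RPS2 and 1022 bp for RPSA. The family shares were not split by length. Olfactory and vomeronasal receptor pseudogenes, the nonfunctional remainder of the chemosensory receptor clusters, had 38 of 576 (6.60%). Copies of hnRNP and splicing proteins had 8 of 196 (4.08%) and those of cyclophilins and chaperones 11 of 232 (4.74%). Zinc finger copies (10 of 90, 11.1%), antigen receptor segments (25 of 244, 10.2%), glycolytic enzymes (8 of 102, 7.84%) and respiratory chain copies (20 of 250, 8%) had intervals that spanned the background. No member was found at 39 ferritin copies, which allows a share of up to 9.03%, or at 26 MHC pseudogenes, which allows up to 13.2%.

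**Figure D2:**
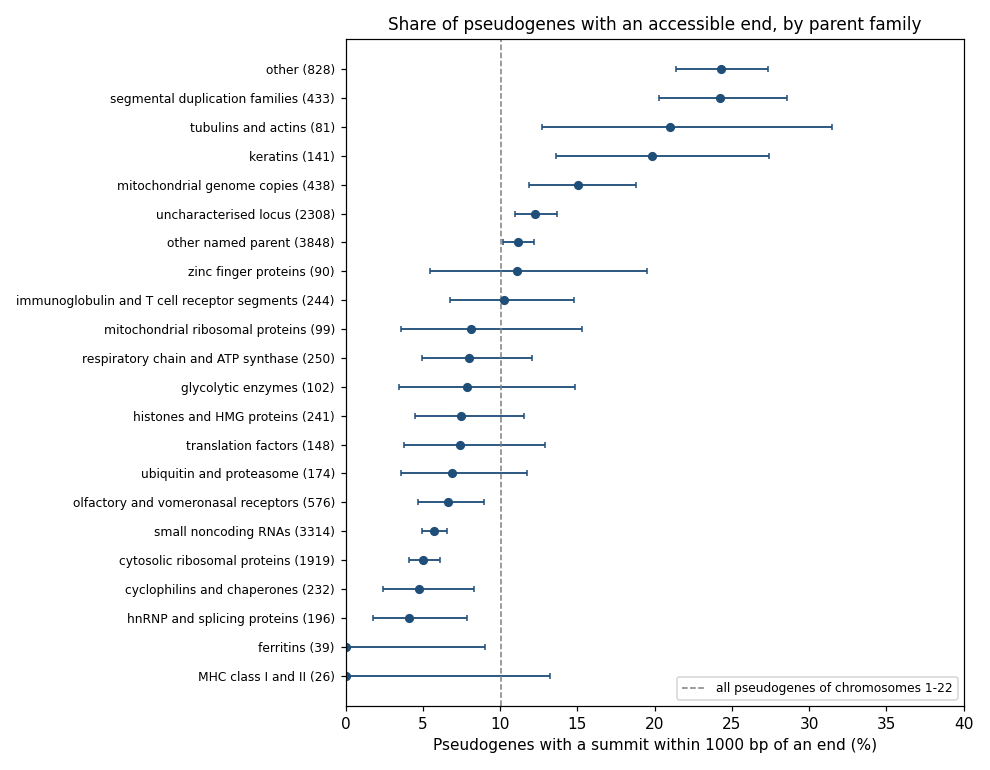
Share of pseudogenes with a member summit within 1000 bp of an end, by parent family, with exact binomial 95% intervals and the number of pseudogenes in brackets; the dashed line marks the 10.1% over all pseudogenes. Segmental duplication families, tubulins and actins, and keratins lie above the line, and ribosomal protein and small noncoding RNA copies below it.

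A high share did not mean strong summits. Keratin copies had a median enrichment of 2.07 (36 summits) and tubulin and actin copies one of 2.25 (22 summits), whereas the ribosomal protein copies, with a low share, had 4.29 (104 summits). Glycolytic copies had the highest family median, 8.48, over only 9 summits. Small noncoding RNA copies had 4.09, segmental duplication families 3.74, mitochondrial copies 3.49 and chemosensory receptors 2.05. The segmental duplication families were wide in spread, with an upper pileup quartile of 462.75 fragments.

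**Figure D3:**
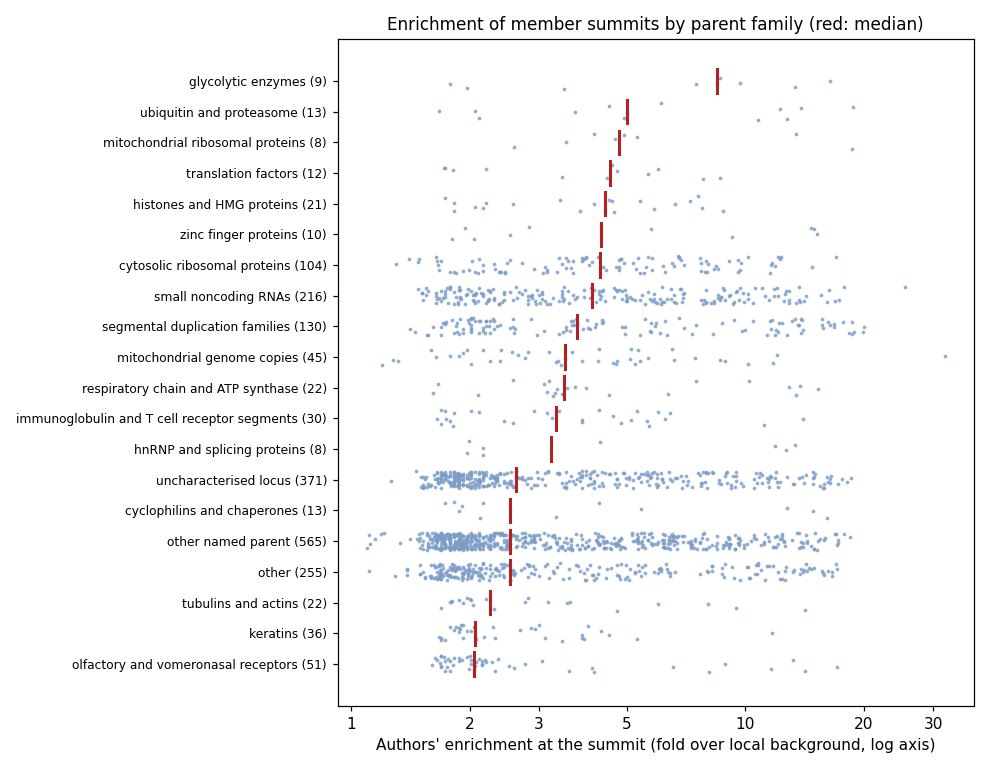
Enrichment of every member summit (points, authors' fold over local background, log axis) by parent family, with the number of summits in brackets and the median in red. Family medians run from 2.05 for chemosensory receptors to 8.48 for glycolytic enzymes, and most families hold summits both under 3 and above 10.

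Among the duplicated families, HERC2 copies had the strongest ends after 2 single summits described further below. HERC2P11 reached an enrichment of 20.0 with 845 fragments at its summit, 97 bp outside the end (interval chr15:28588983-28589562). HERC2P2 had 19.9 and 1219, 113 bp outside, and HERC2P3 18.7 and 908, 129 bp outside. These 3 were alike and close to the parent, HERC2 itself, whose strongest summit had 19.1 and a pileup of 704. HERC2P10 (9.83), HERC2P4 (3.61) and HERC2P8 (2.25) were lower, and the summits of the last 2 lay inside the copy. In all, 7 of 11 HERC2 copies had a member within reach.

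PMS2 copies split in the same way. PMS2P2 reached an enrichment of 18.4 with a pileup of 1413, PMS2P3 16.3 with 1827, PMS2P5 15.7 with 1835 and PMS2P7 13.9 with 2374, and all 4 summits lay 38 to 59 bp outside an end. The parent PMS2 had 16.3 and 1817. At PMS2P9 both summits lay inside the copy and had 1.74 and 2.01. SEPTIN7 copies on 3 different chromosomes had equally strong ends: SEPTIN7P14 on chromosome 4 (18.4, pileup 1887, 55 bp), SEPTIN7P13 on chromosome 1 (17.1, 1619, 38 bp) and SEPTIN7P2 on chromosome 7 (15.8, 934, 16 bp), each just outside the copy. SEPTIN7 itself had 15.1 and 2043, and the plain pseudogene SEPTIN7P8, with its summit inside, had 4.22. Only 4 of the 15 SEPTIN7 copies had a member.

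GUSB copies had members at 5 of 19. GUSBP1 had an enrichment of 16.8 at 53 bp, GUSBP14 13.7, GUSBP3 up to 11.7 and GUSBP11 11.6, against 12.3 at GUSB, while GUSBP19 had 2.06. GOLGA2, which encodes a Golgi matrix protein, had an enrichment of 16.2 with 2277 fragments, and 2 of its chromosome 15 copies exceeded it in enrichment but not in pileup: GOLGA2P10 with 18.9 and 1486, and GOLGA2P7 with 18.7 and 1352. Its copies GOLGA2P8 (6.09), GOLGA2P11 (4.33) and GOLGA2P1 (2.11) were lower.

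Other transcribed duplicates among the 10 highest enrichments were UBE2Q2P2, a copy of a ubiquitin-conjugating enzyme gene (18.8), LOC727751 (18.6) and MRPL45P2, a copy of a mitochondrial ribosomal protein gene (18.65, against 17.3 at MRPL45). Of these 10 summits, 7 were on chromosome 15. Copies of FRG1, a gene of the subtelomere of chromosome 4, had members at 7 of 9, with a median enrichment of 12.8 over 8 summits and the highest value, 17.7, at FRG1DP. DUXAP10, DUXAP9 and DUXAP8, copies of a double homeobox gene, had 14.4, 14.4 and 12.4 within 41 bp of an end (3 of 12 copies), although no summit lay within 1000 bp of an end of DUXA itself. FAM86C1P, FAM86C2P and FAM86GP on chromosome 11 had 13.8, 11.9 and 13.6, at pileups of 4501, 4118 and 4082, each with a second, weaker summit of 4.35, 2.57 and 1.89 at the same copy. FAM86 copies had members at 5 of 12 in all, with a median of 4.00 over 8 summits, and FAM86DP and FAM86EP had 3.65 and 3.60. The FRG1, DUXA and FAM86 copies, apart from FAM86C1P, were singled out after their values were seen.

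DNM1 was the parent with the most accessible copies. DNM1 encodes dynamin 1, a GTPase that pinches vesicles off membranes, and 20 of its 26 copies had a member summit, 25 summits in all, of which 23 were on chromosome 15. The median enrichment was 4.96 and the highest 10.1, at DNM1P29, against 6.63 and a pileup of 364 at the DNM1 gene on chromosome 9. All carried the plain pseudogene label, and pileups ran from 37 to 366. Outside the copies on chromosome 15 lay 19 summits, and 7 of these shared nearly the same offset, 280 to 330 bp from the end: DNM1P33, DNM1P34, DNM1P36, DNM1P38, DNM1P40, DNM1P44 and DNM1P9, with enrichments of 4.96 to 8.11. DNM1P5 fell just past these limits, at 331 bp outside, with a lower enrichment of 3.62. No summit of these copies lay closer than 131 bp to the end. The DNM1 copies and the offset were singled out after their values were seen.

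Copies of a second set of parents had many accessible members, most of them weak and inside the copy. KRT8, a keratin of simple epithelia, had members at 13 of 47 copies, with 18 of 19 summits inside the pseudogene and a median enrichment of 1.92 (pileup 43). The strongest end summit of KRT8 had 12.7 and a pileup of 763, but it lay at a gene end 23444 bp from the start given in the promoter table, and no summit lay within 1000 bp of that start. KRT8P42 was the exception, with 11.7 and a pileup of 370 at 599 bp outside the copy, within a coding gene. Its partner KRT18 had members at 10 of 61 copies, 10 of 12 summits inside, with a median of 3.21 and a range of 1.92 to 4.50. At KRT18 itself the strongest end summit had 1.75.

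The same held for ABHD17A, which encodes a depalmitoylating enzyme: 7 of 8 copies had members, all 15 summits were inside, and the median was 1.97, against 11.6 at the parent. CIC, a transcriptional repressor, had members at 10 of 26 copies with a median of 1.81 and a maximum of 2.44, against 11.5 and a pileup of 4743 at CIC. ACTB, the gene of beta actin, had 5 of 13 copies with a median of 1.92, against 9.19. SNX18, a sorting nexin, had 7 of 23 copies with a median of 1.96, against 13.1, and of its 12 summits 1 lay inside the copy. ACTG1P25, a copy of gamma actin, was the strongest summit of its family, at 14.2 and 93 bp outside, against 6.91 at ACTG1. In pileup the order was reversed, with 861 at ACTG1P25 and 2537 at ACTG1.

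Ribosomal protein copies were rarely accessible but varied in strength. RPS20, a protein of the small ribosomal subunit, had members at 11 of 35 copies with a median enrichment of 7.37 and a maximum of 11.6 at RPS20P29. RPSA had 9 of 66 (median 4.24), RPS2 7 of 54 (2.99), RPL7 6 of 55 (3.77) and RPL21 6 of 134 (5.84). The highest enrichment in the family was 17.0 at RPL21P18, 712 bp outside the copy, and the highest pileup was 1665 at RPS27AP13, 892 bp outside. GAPDH, the glycolytic dehydrogenase, had 4 of 59 copies with a median of 7.99, all summits at least 521 bp from the end. PKMP3, a copy of pyruvate kinase, had 16.4 at 256 bp inside. The parents of this paragraph other than RPL21, RPS27A and PKM were chosen after their values were seen.

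Among the remaining protein families the highest enrichments were 16.1 at CCT6P1, a copy of a chaperonin subunit gene, 15.3 at ATP5MGP3, a copy of an ATP synthase subunit gene, 15.2 at ZNF37BP, 13.4 at HNRNPA1P71, 8.80 at HMGB1P50 and 8.65 at EEF1GP7. OR8Q1P, an olfactory receptor pseudogene, had 17.1 and a pileup of 1670 at 114 bp outside, whereas the median pileup interval of its family ended at 58. TRGV7, a nonfunctional variable segment of the T cell receptor gamma locus, had 13.99. SDHAP1, a copy of a succinate dehydrogenase subunit gene, had 12.9 and a pileup of 1033. The summits of highest pileup in other families were at ZNF767P (1586), UBBP4, a ubiquitin copy (1581), TPI1P2, a copy of triosephosphate isomerase (1139), SNRPEP6, a copy of a spliceosomal protein gene (661), and H2BP2, a histone copy (507).

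Small noncoding RNA copies were split by kind after the values were seen. U6 spliceosomal RNA copies had members at 60 of 1247 (4.81%), 7SL copies, relatives of the signal recognition particle RNA, at 47 of 652 (7.21%), 5S ribosomal RNA copies at 23 of 482 (4.77%) and 7SK copies, relatives of an RNA that restrains transcription elongation, at 16 of 283 (5.65%). U1 copies had 13 of 109 (11.9%, 6.51 to 19.5%), an interval that spans the background of 10.1%. The median distance to the end was 489 bp for U6 and 523 bp for 7SL. RNU6-821P on chromosome 3 carried the second highest enrichment of all members, 25.4 with a pileup of 1190, at 672 bp outside a copy much shorter than that distance. RNU1-27P and RNU1-28P on chromosome 14 had 9.13 and 8.84 at pileups of 3348 and 3192, with backgrounds of 366 and 360 fragments.

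The highest values of both measures were at summits nearest to nuclear copies of mitochondrial genes. A summit 692 bp outside MTCYBP13, a copy of the cytochrome b gene on chromosome 17, had the highest enrichment, 32.1. Its pileup was 13779 and its local background 429 fragments. MTATP8P1 and MTCO1P12, which lie together on chromosome 1, had pileups of 22734 and 15610 but enrichments of only 4.63 and 3.17, with local backgrounds of 4912 and 4920 fragments. The summit of MTATP8P1 lay 299 bp outside the copy, and that of MTCO1P12 lay 21 bp inside. A further summit at MTCYBP13 had a pileup of 2019 and an enrichment of 4.72. The remaining 41 summits in this family had a median enrichment of 3.40, a median pileup of 120 and a highest pileup of 440. The part of the raised local background in the values at MTCYBP13, MTATP8P1 and MTCO1P12 was not tested. MTRNR2L pseudogenes, copies of the mitochondrial 16S ribosomal RNA gene that the symbol patterns had left outside the family, had members at 5 of 12, with 8 summits of 1.39 to 13.2 in enrichment and 84 to 2371 in pileup. Their highest values were an enrichment of 13.2 at MTRNR2L12 and a pileup of 2371 at MTRNR2L8, and they were singled out after the values were seen.

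Copies of ribosomal RNA and their neighbours on the short arm of chromosome 21 had high pileups with little enrichment. RNA5-8SP10, a 5.8S copy, had a pileup of 16706 and an enrichment of 2.81, and RNA18SP5, an 18S copy, had 9078 and 1.11. LOC110467529, an uncharacterised locus in the same stretch, had 9972 and 2.55 at its stronger summit. Between positions 8238542 and 8471273 lay 18 member summits at 6 pseudogenes, with enrichments of 1.10 to 2.86, pileups of 877 to 16706 and local backgrounds of 564 to 8191 fragments. They included 13 summits at CDC27P9, CDC27P10 and CDC27P11, copies of a gene for a subunit of the anaphase-promoting complex, whose enrichments had a median of 1.33, against 16.2 at CDC27. The other 27 members of chromosome 21 had a median pileup of 85. The background was raised above the genome-wide level at each of the 20 summits of highest pileup, and its part in their pileup was not tested. Over all members the background was at the genome-wide level for 36.1%, against 34.4% of all summits within the same limits. It was raised at 233 of the 242 members with an enrichment of at least 10.

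**Figure D4:**
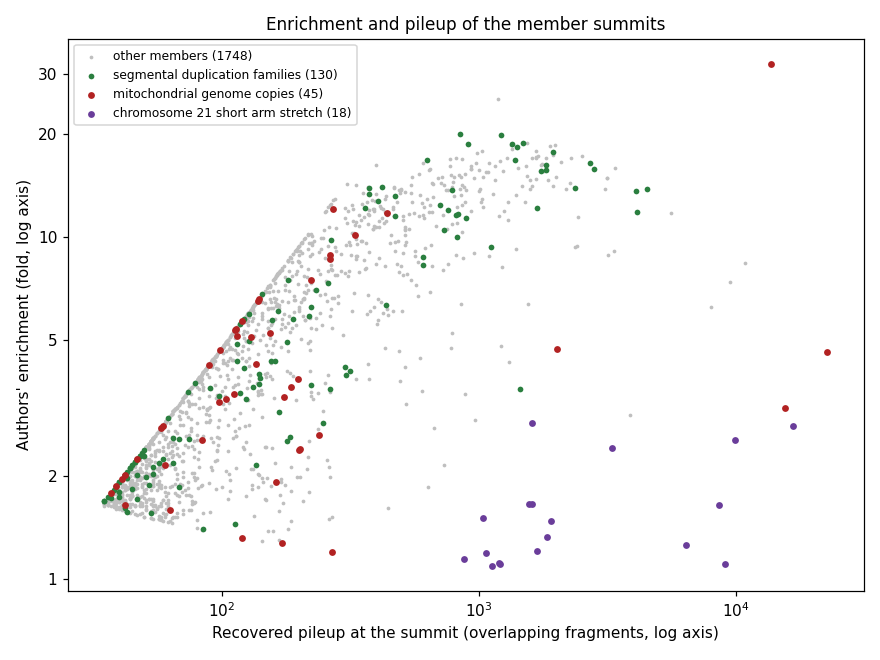
Enrichment (authors' fold) against recovered pileup (overlapping fragments) for the 1941 member summits, both on log axes, with segmental duplication families in green, mitochondrial genome copies in red and the chromosome 21 short arm stretch in purple. The upper edge is the line of summits at the genome-wide background of 20.3 fragments; the purple points lie at pileups of at least 877 and enrichments of at most 2.86.

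REXO1L copies, relatives of an exonuclease gene in a tandem array on chromosome 8, had members at 9 of 11, with 32 summits of 1.29 to 3.94 and a highest background of 122. REXO1L2P had the most member summits of any pseudogene, 7, followed by CDC27P10 with 6. IMPDH1P10, REXO1L5P and RN7SL429P had 5 each, and ABHD17AP4, AZGP1P1, CDC27P11, DUX4L44 and ELOA3BP were among those with 4. Of these 10 pseudogenes, DUX4L44 was alone in exceeding an enrichment of 3, and reached 8.73.

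A parent was named by the symbol of 865 member summits, with 429 distinct parents. Of the 436 coding parents with at least 1 copy within reach of a member, 389 (89.2%, 85.9 to 92.0%) were accessible at an end of their own, with a summit at most 1000 bp away. For the 1653 parents whose copies had none the share was 85.8% (84.1 to 87.5%), and the intervals overlapped. Over all autosomal coding genes 66.3% had such a summit. The median enrichment at the parents was 12.7 (12.03 to 13.1) in the first group and 13.4 (13.3 to 13.7) in the second, and the median pileups were 1034 and 1048, with overlapping intervals. Either end of a parent counted. Of 318 parents with a member copy, a summit of their own and a start in the promoter table, 301 (94.7%) had their strongest end summit within 1000 bp of such a start.

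Copies were weaker than their parents in most pairs. Of 620 copies with a member whose parent also had a summit, 503 (81.1%, 77.8 to 84.1%) had a lower enrichment than the parent, and 549 (88.5%, 85.8 to 90.9%) a lower pileup. The medians were 3.80 for the copies and 12.3 for the parents in enrichment, and 98.5 and 985 fragments in pileup. Copies of 1 parent share sequence, so these pairs are not independent. The sides were also chosen unequally: a copy's summit had to lie over 1000 bp from other gene ends, a parent's did not. Summits near both a pseudogene end and another gene's end, left out here, had a median enrichment of 7.97 (367 summits). The part of this choice in the pairs was not tested. Of 46 parents with at least 3 accessible copies, 43 had a summit of their own, 6 had a median copy enrichment of at least 10, 19 had a median under 3, and at 4 every copy was accessible.

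**Figure D5:**
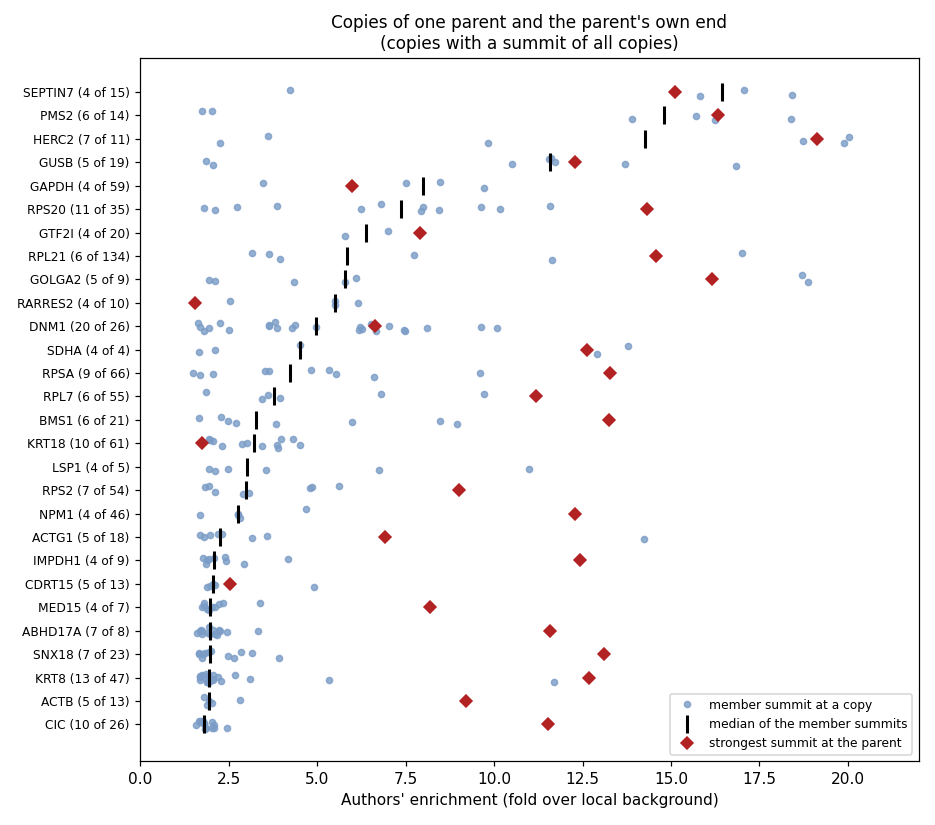
Enrichment (authors' fold) of the member summits at copies of each parent with at least 4 accessible copies (blue), their median (black bar) and the strongest summit at the parent's own end (red diamond), with accessible copies of all copies in brackets. SEPTIN7, PMS2, HERC2 and GUSB copies reach their parents' values, whereas CIC, ACTB, SNX18, ABHD17A and KRT8 copies lie mostly near 2 and far left of the diamond. The KRT8 diamond is a summit 23444 bp from the KRT8 start in the promoter table.

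Parents of strong and of weak copies had similar promoter windows. In the 300-base windows of the RefSeq promoter table (250 before to 50 after the start), the median number of CpG dinucleotides was 27 (24 to 30) for 68 of the 75 parents with a copy of enrichment 10 or more, and 29 (25 to 32) for 127 of the 150 parents whose copies all stayed under 3. Over all 27305 genes of the table it was 14. The parents are all coding genes, whereas the table was not limited to these (19126 autosomal coding genes are annotated). The GC box GGGCGG was found on either strand in 75% and 76.4% of the 2 sets, against 44.6% of all windows. The ETS motif CCGGAAG was in 25.0% and 22.8%, against 10.7%, and CCAAT in 36.8% and 33.1%, against 35.7%. These letters were counted on both strands with overlaps allowed, and a match is a description of the window. The HERC2 window held 2 matches to the GC box, 1 to the ETS motif and 2 to CCAAT, and the PMS2 window 2, 0 and 3.

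The labelled line was checked against marker genes. A summit within 1000 bp of an end was found at 6 of 8 mesenchymal genes (VIM, FN1, CDH2, COL6A1, TWIST1 and CD44, but not COL1A2 or THY1), 3 of 4 epithelial genes and 1 of 4 endothelial genes. Enrichment at the mesenchymal genes ran from 6.27 at TWIST1 to 15.1 at FN1. Among the epithelial genes KRT8 had 12.7, EPCAM 2.11 and KRT18 1.75, and CDH1 had no summit. The KRT8 value came from a gene end 23444 bp from the start in the promoter table, and that start had no summit within 1000 bp. The blood genes CD3E and SPI1 had 14.5 and 8.44, and PTPRC had none. KDR, with 3.05, was the endothelial gene with a summit, and PECAM1, CDH5 and TEK had none. The markers therefore did not separate the labelled cell type from the others by the presence of a summit. Whether other cells contributed to any member was not tested.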

How the data were processed

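ATAC-seq libraries of HT1080 cells in 3 collagen concentrations, 4 each, were represented by 1 peak list in narrowPeak layout, with 10 columns, no header and no library columns. The submitters' processing notes name fastp 0.20.0, Bowtie2 2.4.3, deepTools 3.5.0, SAMtools, MACS2 2.2.7.1 and the build hg38, with no role or order. The deposited enrichment is a ratio (fold over local background at the summit), the p-value and q-value of each deposited line are given on the −log10 scale, and the deposited score equalled 10 times the −log10 q, truncated, in 99.8% of lines. The lowest −log10 q in the authors' deposited table was 1.30. Each line was treated as 1 summit.

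Pileup and background were computed by inverting the enrichment, taken as (pileup + 1)/(background + 1), and the upper Poisson tail given by the −log10 p. The pileup came out whole, within 0.05, for 99.7% of members. The 6 exceptions had pileups of at least 1130. The steps were tested on simulated data. Depth per library is unknown, so no limit on sensitivity per library is given.

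Distances ran to both ends of RefSeq genes (GRCh38.p14). Parents were taken as the coding gene whose symbol precedes a final P, with or without a number. Families came from 19 symbol patterns. Shares have exact Clopper-Pearson 95% intervals and medians order-statistic 95% intervals, and nothing was tested, since a pooled list has no replicates. Named pseudogenes were those nearest to the 10 summits of highest enrichment and of highest pileup, the highest of each family with at least 3 summits, the 10 with most summits, their parents, and those next to the limits. Any other gene named was chosen after its values were seen, which covers most of the parents with many copies, the splits of small RNA copies and the length classes. The values of 1 pseudogene that this rule names, and of 1 marker gene, are not reported here. Members and lists were chosen with earlier results of these data known. Alternatives were windows of 500 and 2000 bp, a −log10 q of at least 10, intervals of at most 3000 bp, interval overlap and the strongest summit per interval, with 2 more added after the data were seen. Python 3.11.15 with numpy 2.4.6, pandas 2.3.3, scipy 1.17.1 and matplotlib 3.10.9 was used.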

Additional observations from a re-analysis of the deposited data

Results flagged for a closer look

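Signal at pseudogene ends also lay outside the limits of the rule, and none of it enters the values above. On chromosome X, 29 summits met the distance conditions, at medians of 5.62 in enrichment (3.05 to 7.41) and 130 in pileup. On chromosome Y, 22 summits did so, at medians of 2.66 and 377. Peak intervals longer than 10 kb held 123 further summits in only 7 intervals, nearest to 31 pseudogenes, at medians of 7.42 and 807. The highest enrichment of these, 12.3, was at DUX4L13, a copy of a double homeobox gene, and the highest pileup, 2045, at DUX4L4. With no untreated sample and no value for a library, these counts could not be set against a control.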

How the results depend on the processing

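Of 40 values recomputed under other settings, 22 moved by less than their interval (for counts, by less than 1.5 times) and 18 moved further. With a window of 500 bp there were 1217 member summits, 6.87% of pseudogenes had one, the medians were 3.42 (enrichment) and 99 (pileup), and 82.6% of parents had a summit. With 2000 bp the share of pseudogenes was 14.7% and that of parents 93.0%. With a −log10 q of at least 10 the values were 1099 summits, 6.47%, 5.63, 169 and 85.8%. Counting interval overlap gave 11.1% of pseudogenes, and the strongest summit of each interval gave medians of 3.64 and 96. Counting only the plain pseudogene label, a setting chosen after seeing the data, gave 8.46%, 2.76 and 77. The limit of 3000 bp on interval length moved no value further, nor did leaving out copies of mitochondrial genes and of ribosomal RNA, also chosen after seeing the data. No paired analysis was possible because the list has no column for a library, and for the same reason no replicate could be left out. The pooled depth, the placement of reads among near-identical copies and gene symbols as the source of families limit every value.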
